A study of Mus musculus with 24 samples.

Results

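Myoglobin (Mb) was 1 of the 47643 genes in the count table, and its transcript was followed through every library of plantaris, a fast hindlimb muscle of the mouse. The row was chosen because its level was already known to be lower after smoke. The lower level in smoke is therefore given below as a description with no test, and the tests are kept for what moved with Mb from mouse to mouse within each group. All samples came from wild-type C57BL/6 mice, 11 exposed to normal air and 13 to tobacco smoke for 16 weeks. No age, sex or housing was given in the labels. RNA was read from its 3′ end (QuantSeq 3′ FWD, a kit that primes on the poly(A) tail and makes about 1 fragment per transcript), so that counts are not divided by transcript length. The series title concerns chronic activity of the aryl hydrocarbon receptor, a transcription factor that binds compounds in smoke, and its effect on muscle.

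Myoglobin is the small heme protein of heart and skeletal muscle that binds oxygen reversibly, stores it and carries it through the fibre toward the mitochondria. It also reacts with nitric oxide, scavenging it when oxygen is plentiful and making it from nitrite when oxygen is scarce. Skeletal fibres differ in how much of it they hold: slow (type I) and fast oxidative (type IIA) fibres are red with it, while fast glycolytic (type IIB) fibres are pale. The calcineurin and NFAT pathway, MEF2 factors and PGC-1α are known to switch on the gene together with other genes of oxidative fibres.

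Mb (ENSMUSG00000018893) lies on the minus strand of chromosome 15 between 77015487 and 77050670 in GRCm38, in the GENCODE M21 annotation. The sequence before a transcription start is shown because several motifs in it are known from work on muscle genes, and because Myh2, the gene of type IIA myosin, moved most closely with Mb in these samples. The 250 bases upstream of the second of 3 Mb starts in RefSeq (GRCm38.p6, chr15:77022788-77023037, minus strand) and of the single Myh2 start (chr11:67170777-67171026, plus strand) read as follows, with each match to a searched motif in capitals.
Mb: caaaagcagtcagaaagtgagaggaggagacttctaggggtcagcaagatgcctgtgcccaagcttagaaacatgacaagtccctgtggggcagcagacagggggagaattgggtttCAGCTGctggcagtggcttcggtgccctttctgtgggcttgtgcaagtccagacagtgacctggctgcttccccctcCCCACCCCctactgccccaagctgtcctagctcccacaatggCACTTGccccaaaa
Myh2: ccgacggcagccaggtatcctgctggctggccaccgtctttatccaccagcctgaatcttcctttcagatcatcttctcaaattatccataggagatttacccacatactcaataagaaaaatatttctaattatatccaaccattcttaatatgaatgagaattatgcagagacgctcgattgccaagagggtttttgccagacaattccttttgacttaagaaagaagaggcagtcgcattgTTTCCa

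The motifs were searched on both strands, and overlapping matches were kept. The E-box CANNTG, bound by the MyoD family, had 2 matches in the Mb window and is present in 66.2% of 32851 RefSeq promoter windows of the same length. The CCAC box CCCACCCC had 1 match and is present in 8.52% of them. The A/T-rich heptamer AAAATAG, present in 3.89%, had 1 match before the third Mb start and 0 in the window printed. The Myh2 window held 1 match to GGAAA, the core that NFAT binds (55.6% of promoters, here on the opposite strand), and no match to any of the motifs above. The TATA box in its strict form TATAAA (12.4% of promoters) was found in neither window. These are matches of letters only.

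Total counts per library ran from 2515697 to 4528845, and 10159 genes passed the filter on low counts. Counts of fast-fibre genes dominated, with a summed level of 160700 to 249300 CPM (the count divided by the scaled library total and set to a common total) over 12 genes, against 355 to 816 CPM for 9 slow-fibre genes. The 5 cardiac markers summed to 2.32 to 7.27 CPM, so that heart, the other tissue rich in Mb, left almost no transcripts of its own. Air replicate 11 stood apart in several measures: its scaling factor (0.857) was the lowest of all, its fast-fibre sum (249300 CPM) the highest, and its share of mitochondrially encoded counts (1.82%) the lowest. Values without it are given beside the calls of genes tracking Mb that it ended and the correlations in air that it moved most. Nothing in the labels says more of the replicates than that they are separate samples, so that p-values measure the spread between these samples. Where the text speaks of mice or of a muscle, each library is taken as a separate animal, which the labels do not state.

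Mb was among the 20 most abundant genes in every library, ranking from 12th to 18th in air and from 16th to 20th in smoke. The 11 air samples held 17488 to 31241 Mb counts and the 13 smoke samples 14989 to 23426, so that counting error is small beside the spread between mice. As a share of all counts, Mb took 0.499% to 0.846% in air and 0.488% to 0.661% in smoke. Only 2 annotated genes overlap it, both on the opposite strand. Apol6 had 5154 counts in all libraries together against 525908 for Mb, and the other, Gm49540, is not analysed here.

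In air, the Mb level was 5861 CPM in the lowest sample, 7720 CPM at the median and 8020 CPM in the highest, with a mean of 7163 ± 862.9 CPM (SD, n = 11). The air values were bunched near the top: 6 samples (replicates 8, 4, 3, 6, 1 and 5) lay between 7720 and 8020 CPM, and replicates 11, 2 and 7 lay at 5861, 6079 and 6160 CPM. In smoke, the level was 4953 CPM at the lowest (replicate 8), 5381 CPM at the median and 6632 CPM at the highest (replicate 13), with a mean of 5594 ± 532.2 CPM (SD, n = 13). The smoke values were bunched near the bottom instead, with 8 of 13 samples at or below 5437 CPM. The coefficient of variation was 12.1% in air and 9.51% in smoke.

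The smoke level was 0.781 times the air level, or 21.9% lower (log2 fold change -0.36, SE 0.06). All 13 smoke samples lay below the air mean, 9 of them lay below the lowest air sample, and 7 of 11 air samples lay above the highest smoke sample. The groups still overlapped, in the region from 5861 to 6632 CPM, which held the 4 highest smoke samples and the 4 lowest air samples. Of the 143 pairs of a smoke and an air sample, 132 had the lower value in smoke. Without air replicate 11 the log2 fold change was -0.39 (SE 0.06). For the background of that contrast, 195 of 10159 genes (1.92%) differed between smoke and air, of which 121 (1.19%) were lower in smoke and 74 (0.728%) higher at an adjusted p under 0.05 (edgeR's quasi-likelihood test, Benjamini-Hochberg adjustment), 48.4% of all tested genes had a negative log2 fold change, and their median was 0.01. DESeq2 called 202 (1.99%) lower, and edgeR with no filter on low counts 129 of 27644 (0.467%). Because whole muscle was read, fewer Mb-rich fibres and less Mb RNA per fibre cannot be told apart.

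**Figure D1:**
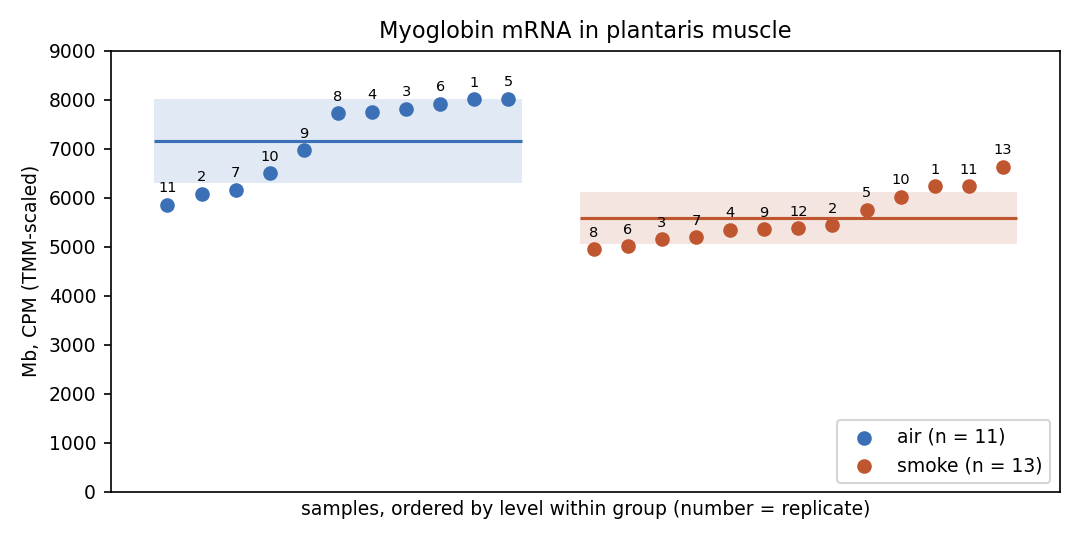
Mb level in CPM (linear axis from 0) in each of the 24 samples, ordered by level within the air and smoke groups and numbered by replicate. Lines are group means and shaded bands 1 SD; 9 of the 13 smoke samples lie below the lowest air sample, replicate 11.

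Sample order on the sequencing sheet went with the groups: all libraries were read on 1 lane, but the sheet numbers in the column names of the smoke libraries all come before those of the air libraries, so that position and group cannot be told apart. Markers of other cells also moved with smoke. The summed level of 7 red-cell genes had a median of 765 CPM in air (488 to 1445) and 558 CPM in smoke (369 to 884). That of 6 Schwann-cell genes had a median of 170 CPM in air (122 to 285) and 250 CPM in smoke (183 to 859). Endothelial sums were close to each other, with medians of 487 and 466 CPM and ranges of 430 to 553 and 425 to 516 CPM. The part of these differences in the Mb value was not tested. With Hbb-bs as a covariate, an alternative chosen after seeing the data, the Mb log2 fold change was -0.35 (SE 0.08). Hbb-bs is a single transcript with r = 0.04 to Mb within groups, so that this value cannot speak to the share of other cells.

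The question set for Mb was which genes follow it from mouse to mouse. Each gene was related to the deviation of Mb from its own group mean (log2 CPM), so that the smoke-air difference could not enter. Mb deviations ran from -0.28 to 0.17 in air and from -0.17 to 0.25 in smoke. Of 10158 other genes, 4 (0.0394%) tracked Mb at an adjusted p under 0.05 (edgeR's quasi-likelihood test), all of them rising where Mb was higher: Myh2, Homer2, Retreg1 and Myoz2. Without adjustment, 594 had a p under 0.05. The median within-group Pearson correlation of all tested genes with Mb was 0.01, and the 5th and 95th percentiles were -0.36 and 0.37.

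Myh2, the heavy chain of type IIA fibres, had the highest correlation of all tested genes. Its level ran from 3116 CPM through a median of 3918 to 4941 CPM in air, and from 2555 CPM through 3354 to 4492 CPM in smoke. The smoke sample lowest in Mb (replicate 8) was also lowest in Myh2, the smoke sample highest in Mb (replicate 13) was highest in Myh2, and air replicate 11 was lowest in both among air samples. The slope was 1.13 (SE 0.17) log2 units of Myh2 per log2 unit of Mb, with an adjusted p of 0.00145 by edgeR's quasi-likelihood test, and the within-group r was 0.82. Over the 24 omissions of a single sample, r stayed between 0.79 and 0.85 and the adjusted p between 0.000361 and 0.0279. Myh2 was first among all genes in 19 of these 24 repeats and called in all 24. Genes of the myosin heavy chain cluster are close copies of each other, and how reads that match several of them were counted is not given in the sources used here. Myh2 also overlaps an annotated gene on the other strand.

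Within each group alone, Myh2 and Mb gave r = 0.91 in smoke (rho 0.92, permutation p = 2e-05, adjusted p = 0.00088 over 44 relations, r = 0.81 without the 2 samples farthest from the Mb median). In air they gave r = 0.78 (rho 0.79, permutation p = 0.00341, adjusted p = 0.05001, just above the threshold, r = 0.62 without the 2 farthest samples). Without air replicate 11 the r in air was 0.68. With the 2 farthest samples of each group left out, none of the 44 relations was called, that of Myh2 in smoke included. The slope was steeper in smoke by 0.72 (SE 0.33), more than its error, but this did not pass edgeR's test of the difference once adjusted over all tested genes (adjusted p = 0.906).

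**Figure D2:**
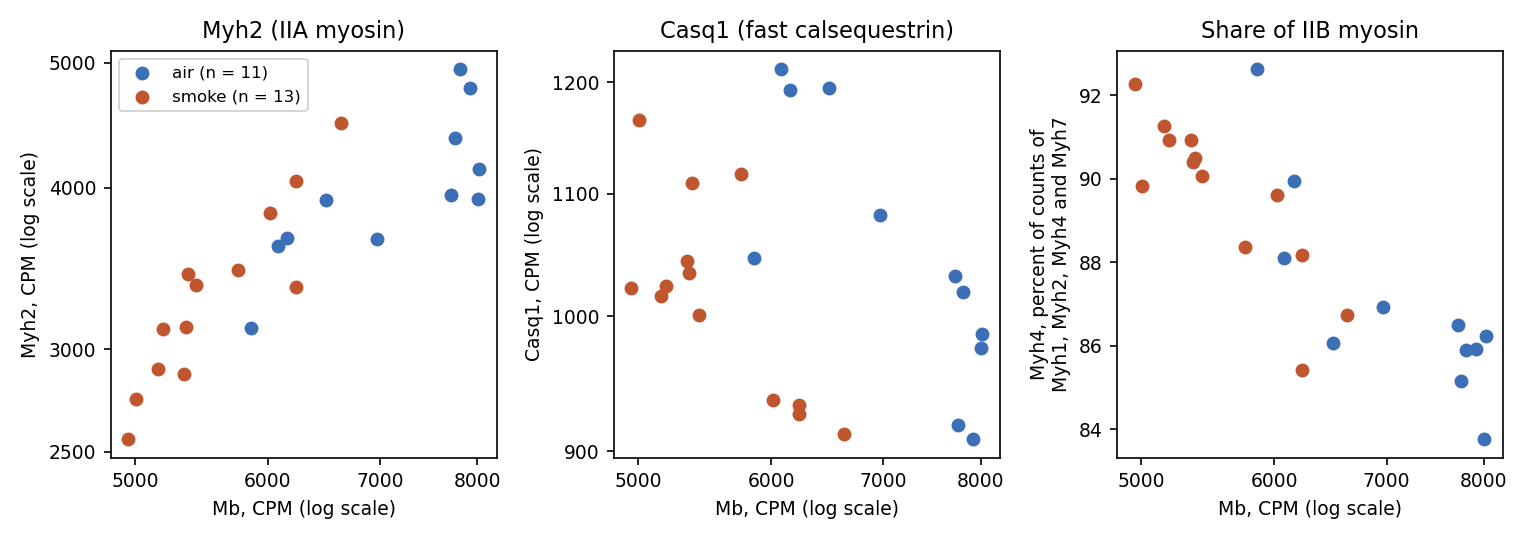
Mb level in CPM (log axes for CPM) of each air and smoke sample against Myh2 (left), against Casq1 (middle) and against the percentage of myosin heavy chain counts that came from Myh4 (right, linear axis). Each point is 1 sample; in both groups Myh2 is higher, and Casq1 and the Myh4 share lower, in samples with more Mb.

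The other 3 genes called alongside Myh2 are not myosins. Homer2, a scaffold protein of calcium signalling that can bind NFAT, ran from 48.2 to 99.3 CPM in air and from 51.5 to 83.7 CPM in smoke, with r = 0.80 and a slope of 1.14 (SE 0.21, edgeR adjusted p = 0.0275). Retreg1, a receptor for the removal of endoplasmic reticulum by autophagy, ran from 104 to 221 CPM in air and from 94.0 to 169 CPM in smoke, with r = 0.73 and a slope of 1.42 (SE 0.27, edgeR adjusted p = 0.0294). Myoz2 (calsarcin-1), a Z-disc protein of slow and oxidative fibres that binds calcineurin, ran from 111 to 341 CPM in air and from 205 to 359 CPM in smoke, with r = 0.72 and a slope of 1.54 (SE 0.31, edgeR adjusted p = 0.039). All of them lost the call when any of 4 single samples was left out: air replicate 11 (adjusted p = 0.0939 for each, with slopes of 0.92 for Homer2, 1.29 for Retreg1 and 1.11 for Myoz2) or smoke replicates 8, 11 or 13 (adjusted p from 0.0509 to 0.109). Over all 24 single omissions, Homer2 lost the call in 4, Retreg1 in 8 and Myoz2 in 13, and Myh2 in 0. With the rank of Mb in place of its level, Retreg1 (adjusted p = 0.109) and Myoz2 (adjusted p = 0.0533) were not called, and with the replicate number as a block, Retreg1 (adjusted p = 0.343) and Homer2 (adjusted p = 0.644) were not.

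Myoz2 and Mb show how much a single muscle can weigh. Air replicate 11 held 111 CPM of Myoz2, and the other air samples 223 CPM (replicate 2) to 341 CPM. Myoz2 did not follow Mb into the smoke difference: its mean was 271 ± 66.9 CPM (SD, n = 11) in air and 278 ± 49.7 CPM (SD, n = 13) in smoke, and the log2 fold change was 0.04 (SE 0.12, adjusted p = 0.929 by edgeR). Homer2 was at a log2 fold change of -0.27 (SE 0.08, adjusted p = 0.0887) and Retreg1 one of -0.30 (SE 0.11, adjusted p = 0.132), neither past the threshold.

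Ordered by within-group r, the 10 genes most like Mb over the 24 samples were Myh2 (0.82), Homer2 (0.80), Tpr (0.79), Fastk (0.78), Actn2 (0.75), Mcur1 (0.74), Retreg1 (0.73), Myoz2 (0.72), Wfs1 (0.72) and Ip6k3 (0.71). The next in order were Smtnl1 (0.71) and Apol6 (0.70). Apol6 is the gene that overlaps Mb on the other strand, and whether strand was used in counting is not given in the sources used here, so that its value is uncertain. Actn2, the Z-disc α-actinin found in all fibre types, ran from 393 to 475 CPM in air and from 304 to 455 CPM in smoke. It was lower in smoke (log2 fold change -0.22, SE 0.06, edgeR adjusted p = 0.0407), and so was Wfs1, an endoplasmic reticulum membrane protein (log2 fold change -0.29, SE 0.06, adjusted p = 0.00934). Tpr, Fastk and Mcur1, which act at the nuclear pore and in mitochondria, had log2 fold changes of 0.01, 0.04 and 0.02 and adjusted p of at least 0.738. Of the 10 genes, Actn2 and Wfs1 were the 2 called between smoke and air. The call of Actn2 was lost in 16 of 24 single omissions (adjusted p up to 0.0745), with the replicate number as a block (0.0638) and with no filter (0.0502), and that of Wfs1 in none.

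The 5 genes at the opposite end of the order were Casq1 (-0.76), Cib2 (-0.73), Cadm1 (-0.72), Atp2a1 (-0.71) and Pvalb (-0.71). Casq1, Atp2a1 and Pvalb are the calcium-storing, calcium-pumping and calcium-buffering proteins of fast fibres. Casq1 ran from 908 to 1212 CPM in air and from 912 to 1165 CPM in smoke. The 3 air samples highest in Casq1 (replicates 2, 7 and 10, from 1193 to 1212 CPM) were among the 4 lowest in Mb, and the 4 smoke samples highest in Mb (replicates 13, 11, 1 and 10) were the 4 lowest in Casq1, from 912 to 936.5 CPM. None of the 5 passed the threshold within groups (adjusted p from 0.0646 for Cib2 to 0.248 for Atp2a1), and none differed between smoke and air past it (adjusted p from 0.0558 for Cadm1 to 0.819 for Cib2).

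**Figure D3:**
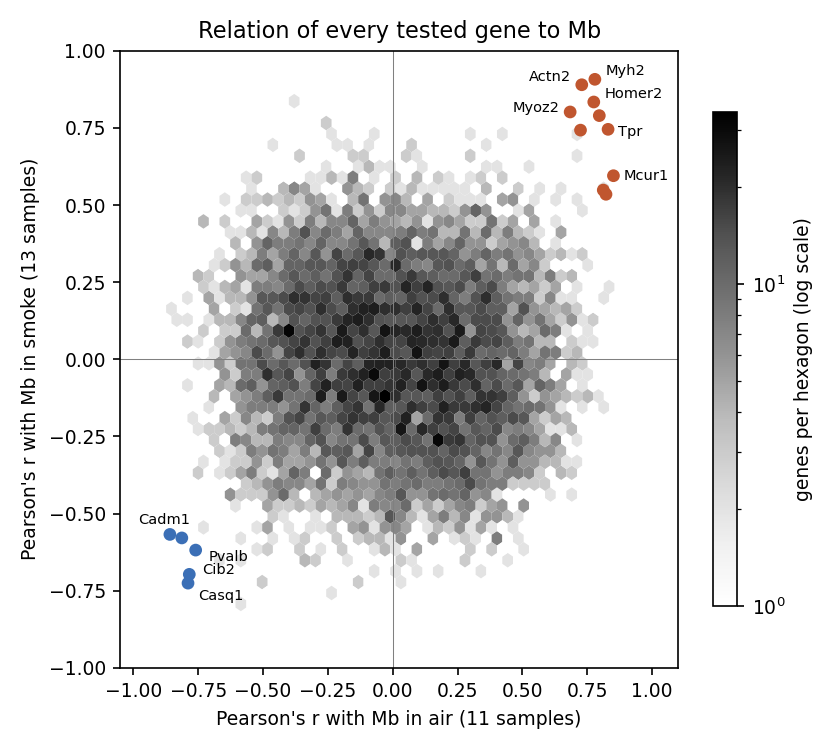
Pearson's r of every tested gene with Mb in the 11 air samples (horizontal) and the 13 smoke samples (vertical), as hexagons shaded by the number of genes (log scale). The 10 genes with the highest r over both groups (orange) and the 5 with the lowest (blue) were picked by these values; Myh2 has 0.78 in air and 0.91 in smoke.

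In air alone, 0 of 8065 genes (0%) tracked Mb at an adjusted p under 0.05 by edgeR, with 593 at an unadjusted p under 0.05. Limma voom also called 0, but edgeR with no filter on low counts called 34 of 24707. In smoke alone, 5 of 7940 genes (0.063%) passed by edgeR (5 by limma voom, 13 with no filter and 3 with the rank of Mb): Myh2, Fhl1, Ankrd2, Actn2 and Csrp3, all rising with Mb. The last 4 are named because the count was small, after their values were seen. Fhl1, Ankrd2 and Csrp3 (muscle LIM protein) are proteins of the sarcomere and Z-disc that are known to respond to load and stretch. Csrp3 ran from 169 through 242.1 to 286 CPM in air and from 75.2 through 136 to 362 CPM in smoke, and Ankrd2 from 123 through 179 to 251.3 CPM in air and from 72.9 through 120 to 285 CPM in smoke. The top of the smoke range was set by replicate 11 for both genes. The other 12 smoke samples reached 170.3 CPM of Csrp3 and 232.5 CPM of Ankrd2, below the highest air samples.

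Csrp3 had a slope of 3.44 log2 units per log2 unit of Mb in smoke and 0.36 in air, and Ankrd2 one of 3.20 in smoke and 0.25 in air. Even so, in the test of the difference between the slopes over all 24 samples, 0 of 10158 genes (0%) passed by edgeR, with 511 at an unadjusted p under 0.05, a smallest adjusted p of 0.906 and 0 calls by limma voom. A relation of these genes to Mb that holds in smoke and not in air is therefore not shown. Leaving out single smoke samples brought the count in smoke to between 2 and 6, with 2 calls without replicates 4, 8, 11 or 13 and 3 without replicates 3, 5 or 12. Between smoke and air, Fhl1 (log2 fold change -0.37, SE 0.08, adjusted p = 0.0142) and Csrp3 (-0.70, SE 0.16, adjusted p = 0.0142) were lower in smoke, and Ankrd2 (-0.35, SE 0.15, adjusted p = 0.243) did not pass.

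The fast-fibre list divided with respect to Mb. Of its 12 genes, Myh2 and Myh1 (r = 0.61), the heavy chains of type IIA and IIX fibres, had a positive r, and the other 10 had a negative one, from -0.25 for Tnni2 to -0.76 for Casq1. Myh4, the type IIB heavy chain, had r = -0.55 and a slope of -0.65 (SE 0.19, edgeR adjusted p = 0.36). The list's median r was -0.46, beside 0.01 for all tested genes. Only Myh2 was called by edgeR, beside 0.0394% of all tested genes. DESeq2 called 6 of the 12, beside 0.325%, and limma voom 3, beside 0.0984%. All 9 slow-fibre genes had a positive r, with a median of 0.29 and none called by edgeR. DESeq2 called 1 of them, beside 0.325% of all tested genes, and edgeR with no filter 1, beside 0.148%. The 2 most abundant were Myl3 (r = 0.37) and Myl2 (r = 0.62, adjusted p = 0.143), light chains of slow myosin, and Myh7, the slow heavy chain, had r = 0.20 at a level of only 12.7 ± 6.17 CPM in air (SD, n = 11) and 13.8 ± 9.80 CPM in smoke (SD, n = 13). Ckm, the muscle creatine kinase, had r = -0.53 and Acta1, the main actin of muscle, -0.06, neither past the threshold. In air alone the r of Myh4 was -0.62 and that of Ckm -0.61, or -0.40 and -0.39 without replicate 11. In smoke alone the r of Ckm was -0.38 and turned to 0.14 without the 2 samples farthest from the Mb median.

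Myosin heavy chain counts can also be read as shares of one another within a library, which needs no scaling between libraries. The share of Myh4 in the counts of Myh1, Myh2, Myh4 and Myh7 was 83.8% at the lowest, 86.2% at the median and 92.6% at the highest in air, and 85.4%, 90.1% and 92.3% in smoke. The share of Myh2 was 5.22%, 9.08% and 10.8% in air and 4.77%, 6.66% and 9.46% in smoke. The top of the air range for Myh4 and the bottom of that for Myh2 were set by air replicate 11. Without it the 10 other air samples ran from 83.8% to 89.9% for Myh4, with 7 of 13 smoke samples above them, and from 7.18% to 10.8% for Myh2, with 10 of 13 smoke samples below them. No test between groups was made on the shares. In each group the samples with the higher Mb level had the lower Myh4 share, with r of -0.82 in air (rho -0.77) and -0.87 in smoke (rho -0.86), and the higher Myh2 share, with r of 0.81 in air (rho 0.78) and 0.86 in smoke (rho 0.91). Without the 2 samples farthest from the Mb median, r was -0.75 and -0.81 for Myh4 and 0.71 and 0.74 for Myh2. Without air replicate 11 alone, the r in air was -0.78 for Myh4 and 0.75 for Myh2. These correlations are a description with no test: the shares were computed after the relation of Mb to Myh2 had been seen in the same samples, and the Myh4 share is nearly what the Myh2 and Myh1 shares leave.

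The mean ratio of Mb to Myh2 differed less between the groups than the mean of either gene did. On the log2 scale it was 0.84 ± 0.12 in air (SD, n = 11, 0.66 to 1.03) and 0.76 ± 0.12 in smoke (SD, n = 13, 0.56 to 0.96). Myh2 itself had a mean of 4002 ± 532.8 CPM in air (SD, n = 11) and 3328 ± 545.8 CPM in smoke (SD, n = 13), and its log2 fold change of -0.27 (SE 0.08) did not pass the threshold (edgeR adjusted p = 0.0627). With the Myh2 level as a covariate, the smoke-air log2 fold change of Mb was -0.19 (SE 0.05) in place of -0.36, and with the Myh4 level it was -0.27 (SE 0.05). Both covariates were added after seeing the data. Myh2 was picked as the gene closest to Mb in these same samples, and its mean was lower in smoke. A smaller Mb difference follows from such a covariate, and the part of Myh2 in the Mb value was not tested.

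Fatty acid oxidation is a major fuel pathway of red fibres. Its genes lay mostly on the same side as Mb in both comparisons. Of 20 tested genes (22 listed), 19 had a positive r with Mb within groups, with a median of 0.28 and none called. The 2 most abundant were Lpl, the lipoprotein lipase (r = 0.50), and Fabp3, the fatty acid carrier of heart and red muscle (r = 0.54). Fabp3 was 520 CPM at the lowest, 842 at the median and 1205 at the highest in air, and 401, 514 and 818 CPM in smoke. Its relation to Mb in smoke was r = 0.73 (rho 0.57, permutation p = 0.00264, adjusted p = 0.05001, r = 0.59 without the 2 farthest samples), just above the threshold. In air it was r = 0.41 (permutation p = 0.214, adjusted p = 0.492), and the value rested on few samples: it was -0.04 without the 2 farthest, 0.34 without replicate 11 and 0.88 without replicate 7. Air replicate 7 had the highest Fabp3 of all samples with the third lowest Mb of its group.

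Between smoke and air, all 20 of these genes had a negative log2 fold change, with a median of -0.17, beside 48.4% negative and a median of 0.01 over all tested genes. By edgeR 6 of them were called lower, beside 1.19% of all tested genes. They include Fabp3 (810 ± 184 against 539 ± 101 CPM, log2 fold change -0.59, SE 0.10, edgeR adjusted p = 0.00107), Acadvl (406 ± 22.8 against 328 ± 34.0 CPM, -0.31, SE 0.05, adjusted p = 0.00107) and Hadha (230 ± 27.2 against 183 ± 19.9 CPM, -0.33, SE 0.06, adjusted p = 0.00427), with SD over 11 air and 13 smoke samples. Acadvl and Hadha are enzymes of long-chain β-oxidation. Acadvl had r = 0.34 with Mb within groups and Hadha 0.28. DESeq2 called 8 of the 20 genes lower, beside 1.99% of all genes, and edgeR with no filter 5 of 22, beside 0.467%. Of the 6 edgeR calls, that of Cpt2 was lost in 16 of 24 single omissions (adjusted p up to 0.101), and the others in none. Cpt1b, the muscle carnitine palmitoyltransferase, was among the genes to be related to Mb, but had too few counts to be tested.

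**Figure D4:**
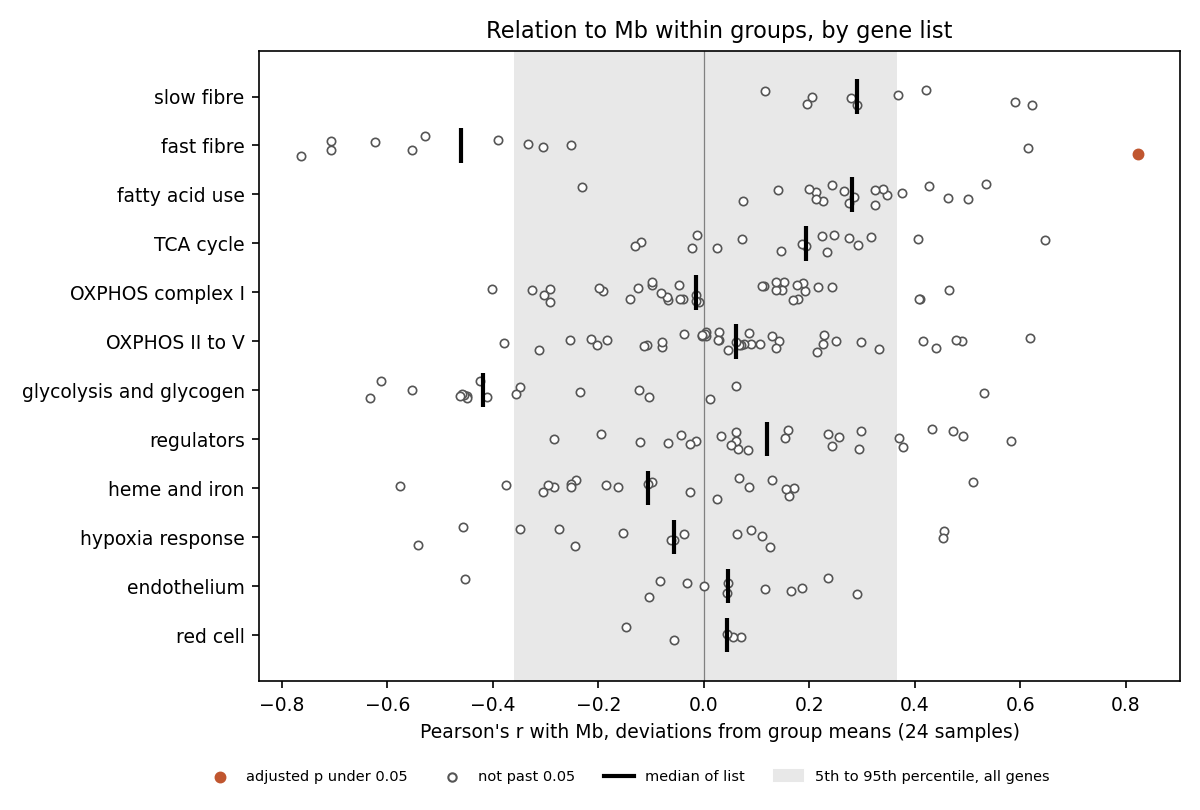
Pearson's r with Mb within groups (24 samples) for the tested members of 12 gene lists, 1 point per gene. Black bars are list medians and the grey band the 5th to 95th percentile of all tested genes; Myh2 in the fast-fibre list is the only gene called by edgeR, and 10 of the other 11 fast-fibre genes lie below 0.

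Subunits of the respiratory chain had lower values in smoke than in air for the most part. Their median r with Mb over both groups lay around 0. Of 36 complex I genes, 16 had a positive r with Mb, with a median of -0.01 (0.02 with no filter on low counts), and none was called. The complex I median was -0.12 in air alone and 0.08 in smoke alone. Of 41 tested genes of complexes II to V (42 listed), 28 had a positive r, with a median of 0.06 and none called. Their median was -0.03 in air alone and 0.19 in smoke alone. Between smoke and air, by contrast, 35 of 36 complex I genes had a negative log2 fold change (median -0.12, 4 called lower) and so did 39 of 41 genes of the other complexes (median -0.13, 6 called lower), beside 48.4% negative and 1.19% called lower over all tested genes. The calls depended on the setting: DESeq2 gave 8 for complex I and 14 for the others, beside 1.99% of all genes, and edgeR with no filter on low counts gave 1 and 2, beside 0.467%. Over 24 single omissions, Atp5j2 lost the edgeR call in 17 (adjusted p up to 0.0871) and Ndufv3 in 8 (up to 0.0779). Cox6b1 lost it in 4 (up to 0.0598) and Atp5g1 in 1 (up to 0.0615), while Ndufa3, Ndufb5, Cox7a1 and Uqcrq lost it in none. Among the most changed were Ndufa3 (436 ± 28.3 against 374 ± 17.3 CPM, log2 fold change -0.22, SE 0.04, edgeR adjusted p = 0.00464) and Cox7a1, the muscle form of a cytochrome oxidase subunit (1803 ± 124 against 1509 ± 65.3 CPM, -0.26, SE 0.04, adjusted p = 0.00107). Ndufa3 had r = -0.30 with Mb within groups and Cox7a1 0.30. Of the other genes named by the same rule, Uqcrq, Cox8b, Ndufb5 and Ndufb9 were lower in smoke, by 0.19 to 0.22 on the log2 scale. Of these, Cox8b lost the call without air replicates 5 or 8 (adjusted p up to 0.0517) and Ndufb9 without air replicates 3, 5 or 8 or smoke replicate 6 (up to 0.0626), and Cox8b, Ndufb5 and Ndufb9 lost it with no filter and with the replicate number as a block. Their r with Mb ran from -0.08 for Cox8b to 0.17 for Ndufb5. Ndufb9 was the most abundant complex I gene (2191 ± 194 CPM in air, n = 11, and 1917 ± 133.9 CPM in smoke, n = 13, SD), with r = 0.15. The next, Ndufb8, had r = 0.41, and Cox6a2 and Atp5b, the most abundant of the other complexes, had 0.03 and 0.07. These last 3 were not called in either comparison. In air and in smoke alone, r was of opposite sign for Ndufb9 (-0.17 and 0.59), Cox6a2 (-0.34 and 0.53) and Atp5b (-0.23 and 0.43). It was positive in both groups for Ndufb8 (0.45 and 0.36). No gene passed the test of a difference in slope between the groups.

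Of the 17 genes of the tricarboxylic acid cycle, none was called as tracking Mb by edgeR and 1 by DESeq2, beside 0.325% of all tested genes. The median r of the 17 was 0.19, with 13 above 0. Idh2, the mitochondrial NADP-dependent isocitrate dehydrogenase, was the highest at 0.65, and Mdh2, the mitochondrial malate dehydrogenase, had 0.27. Of the 17, 15 had a negative log2 fold change in smoke (median -0.08), with none called by edgeR. DESeq2 called 1 lower, beside 1.99% of all tested genes.

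Glycolysis and glycogen use stood on the other side of Mb. Of 18 tested genes (19 listed), 15 had a negative r, with a median of -0.42. None was called by edgeR and 2 by DESeq2, beside 0.325% of all tested genes. The lowest in r were Pgm1 (-0.63), the phosphoglucomutase, and Pygm (-0.61), the muscle glycogen phosphorylase. The most abundant, Eno3 and Aldoa, had -0.24 and -0.45. Hk2, the insulin-responsive hexokinase, had an r of 0.53. In smoke this list did not move as a group: 7 of 18 had a negative log2 fold change (median 0.04), and only Fbp2, the muscle fructose bisphosphatase, was called, being higher (42.7 ± 5.79 CPM in air, n = 11, against 55.0 ± 7.35 CPM in smoke, n = 13, SD, log2 fold change 0.37, SE 0.08, edgeR adjusted p = 0.00863).

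**Figure D5:**
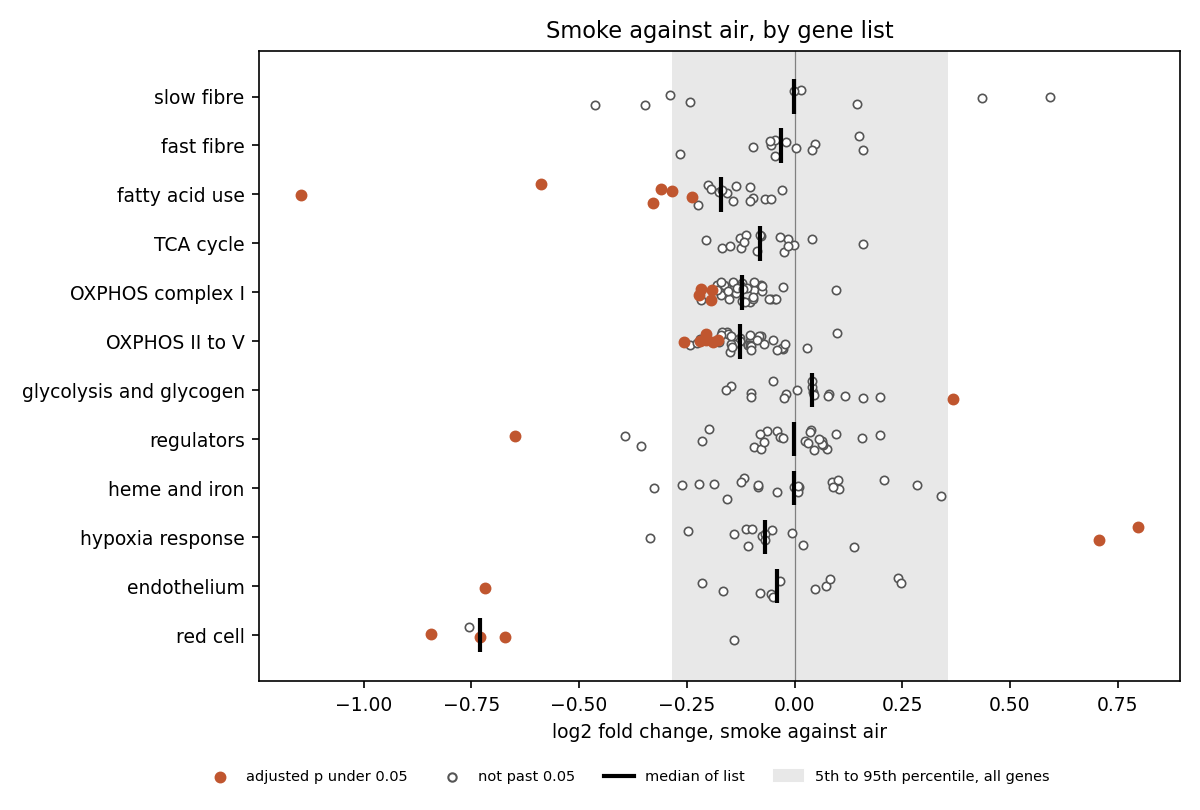
Log2 fold change of smoke against air for the same 12 lists, 1 point per tested gene, with filled points at an adjusted p under 0.05 (edgeR) and black bars for list medians. Fatty acid and respiratory chain genes lie mostly below 0, with 6, 4 and 6 called lower (1.19% of all tested genes were), while glycolysis genes lie on both sides.

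Among 26 regulators of the Mb promoter and the oxidative programme, 19 had a positive r with Mb (median 0.12) and none was called. The highest was Ppargc1a (PGC-1α) at 0.58, with r = 0.59 in air (permutation p = 0.0464, adjusted p = 0.204) and 0.57 in smoke (permutation p = 0.0434, adjusted p = 0.204), the latter dropping to 0.07 without the 2 farthest samples. Perm1, a muscle partner of PGC-1α, had 0.47, and Mef2c 0.30. Esrra and Esrrg, the estrogen-related receptors, had 0.38 and 0.37, and Nfatc1 0.24. Of these values, several rested on few samples. Without the 2 samples farthest from the Mb median, the r of Esrra turned from 0.51 to -0.53 in air and from 0.20 to -0.22 in smoke. In air that of Esrrg turned from 0.55 to -0.38 and that of Mef2c from 0.37 to -0.27. Without air replicate 11 alone, the r in air was 0.15 for Esrra, 0.31 for Esrrg and 0.18 for Mef2c. Rcan1, a calcineurin inhibitor whose own transcription is driven by calcineurin, was lower in smoke (177 ± 43.4 CPM in air, n = 11, against 113 ± 27.8 CPM in smoke, n = 13, SD, log2 fold change -0.65, SE 0.12, edgeR adjusted p = 0.00226), but its r with Mb within groups was 0.03. Ppargc1a (log2 fold change -0.21, adjusted p = 0.222) and Nfatc1 (-0.36, adjusted p = 0.122) did not pass.

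Mb needs a heme, and genes for making it, breaking it down and supplying iron were read beside it. Of 21 tested (23 listed), 8 had a positive r (median -0.11), and none was called within groups or between smoke and air. Alas1, the first enzyme of heme synthesis outside red cells, had the highest r at 0.51 (0.61 in air, permutation p = 0.042, adjusted p = 0.204, and 0.34 in smoke, permutation p = 0.25, adjusted p = 0.492). In air that value was 0.44 without replicate 11 and -0.30 without the 2 farthest samples, so that it rested on them. Abcb10, a mitochondrial transporter, had the lowest r at -0.58. The ferritin chains Fth1 and Ftl1 had r of -0.30 and -0.03 and log2 fold changes of 0.01 and -0.04. Of 7 tested genes for reduction of oxidised Mb and for nitric oxide (8 listed), 6 had a positive r (median 0.18), with Cyb5b at -0.19 and Cyb5r1 at 0.18, and none was called in either comparison.

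All 5 of the other globins tested had a negative log2 fold change in smoke, as Mb had, and their median r with Mb within groups was 0.04. Hbb-bs, the most abundant β-globin, ran from 181 through 317 to 677 CPM in air and from 109 through 176 to 406 CPM in smoke, and was lower in smoke (log2 fold change -0.84, SE 0.19, edgeR adjusted p = 0.0142). Hbb-bt (-0.73, SE 0.18, adjusted p = 0.0229) and Hba-a2 (-0.67, SE 0.18, adjusted p = 0.0369) were lower as well. DESeq2 did not call Hba-a2 (adjusted p = 0.0578), which also lost the call in 10 of 24 single omissions (adjusted p up to 0.0813), and the block ended that of Hbb-bt (adjusted p = 0.0702). Hba-a1 (-0.14, SE 0.10, adjusted p = 0.548) did not pass. The haemoglobin genes come in close copies, and their split is uncertain. None was called as following Mb between mice, and the r of these 4 haemoglobin genes lay from -0.06 to 0.07. That of Cygb (cytoglobin), the globin of fibroblasts, was 0.03 over both groups, a value that rested on air replicate 11: in air it was 0.08 with that sample, 0.51 without it and 0.57 without the 2 samples farthest from the Mb median, and in smoke it was -0.02. Neuroglobin did not pass the filter.

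Of 15 tested genes that respond to low oxygen (17 listed), 6 had a positive r with Mb (median -0.06) and none was called. Pfkfb3, which drives glycolysis, had r = -0.46 and was higher in smoke (159 ± 75.4 CPM in air, n = 11, against 276 ± 92.5 CPM in smoke, n = 13, SD, log2 fold change 0.80, SE 0.19, edgeR adjusted p = 0.0216). Ndrg1 was higher as well (log2 fold change 0.71, SE 0.17, adjusted p = 0.0229), with r = -0.06, but it was not called by limma voom (adjusted p = 0.0634) or with the replicate number as a block (adjusted p = 0.0946). Egln2, an oxygen-sensing prolyl hydroxylase, had r = -0.24.

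No marker list of another cell type held a gene that tracked Mb within groups. Only 4 of 10158 genes (0.0394%) did, so that lists this short would rarely hold one. Median r was 0.05 for 12 endothelial genes, 0.04 for 5 red-cell genes, -0.02 for 6 adipocyte genes, 0.10 for 6 Schwann-cell genes, 0.15 for 3 macrophage genes, -0.01 for 5 fibroblast genes and 0.07 for 2 smooth-muscle genes, and the 6 general myofibre genes had -0.18. The fibroblast median was 0.02 with upper-quartile scaling and the red-cell median -0.08 over 7 genes with no filter, so that neither has a settled sign. In air and smoke alone, medians had opposite signs for macrophage (-0.04 and 0.45), smooth-muscle (-0.20 and 0.39) and Schwann-cell genes (0.39 and -0.04). The same held for myofibre (-0.44 and 0.20), adipocyte (-0.07 and 0.03) and red-cell genes (-0.09 and 0.16). Endothelial (0.07 and 0.12) and fibroblast medians (0.13 and 0.24) were positive in both. Pecam1, a marker of the capillaries that lie beside oxidative fibres, had r = 0.13 in air (-0.07 without replicate 11) and -0.04 in smoke (permutation adjusted p = 0.892 and 0.956). The smoke value was -0.40 without replicate 13 and 0.17 without replicate 8. Between smoke and air, Eng was lower among the endothelial genes (log2 fold change -0.72, SE 0.13, edgeR adjusted p = 0.0023), and Prx (1.48, SE 0.39, adjusted p = 0.0362) and Pmp22 (0.88, SE 0.24, adjusted p = 0.0481) were higher among the Schwann-cell genes. Neither was called by limma voom (adjusted p = 0.224 and 0.164) or with the block (0.098 and 0.19), and single omissions ended the call of Prx in 9 of 24 and that of Pmp22 in 14. Prx had r = 0.21 with Mb within groups and Pmp22 0.05.

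In the family of 44 relations, made of 18 genes and 4 library measures in each group, only Myh2 in smoke passed the adjusted threshold. Neither total count, the share of the most abundant gene Gm42418, the number of genes detected nor the share of mitochondrially encoded counts passed in either group (adjusted p from 0.303 to 0.991). The largest of these was the number of genes detected in air, with r = 0.53, which was 0.33 without replicate 11 and 0.01 without the 2 samples farthest from the Mb median, and the share of mitochondrial counts in air had r = 0.41 and -0.07 without replicate 11. The share of Gm42418 in air had r = 0.00 with replicate 11 and 0.46 without it. Cd36, a fatty acid transporter, had r = 0.49 in air, 0.23 without replicate 11, and -0.18 in smoke. Lpl in air (r = 0.77, rho 0.69, permutation p = 0.00779, adjusted p = 0.0857) came next after Myh2 and Fabp3, and in smoke its r was 0.06.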

How the data were processed

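The authors deposited raw read counts per Ensembl gene, 1 column for each of 24 plantaris libraries, and the counts were used as deposited. Per the labels' protocols, libraries were made with QuantSeq 3′ FWD and read on an Illumina HiSeq instrument. STAR, DESeq2 and mm9 appear in the submitters' processing notes, without role or version. The annotation, the counting tool, the use of strand and the treatment of reads with several matches are not given in the sources used here. GENCODE M21 (GRCm38) held 99.12% of the gene IDs and gave symbols and coordinates, and promoter sequences came from RefSeq (GRCm38.p6). No columns of other samples were present.

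The tests were run in edgeR 4.0.16 (R 4.3.3), using filterByExpr with a minimum count of 10, TMM scaling, and glmQLFit with glmQLFTest. Smoke was set against air over 24 samples. In a second fit the covariate was the log2 CPM of Mb (prior count 2) minus its group mean, with the group as a term and Mb itself not tested. The same was done in each group alone, and the difference of the slopes was tested as an interaction. P-values were adjusted by Benjamini-Hochberg over all tested genes, with a threshold of 0.05. Slopes are log2 units per log2 unit of Mb. The within-group r is Pearson's r of deviations from group means over samples that share their scaling and library with Mb, and carries no p of its own. Correlations within a group used two-sided permutation tests with 100000 resamples in Python 3.11.15. CPM values are counts divided by the TMM-scaled library total and set to a common total. Scripts were tested on simulated data.

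Mb, the gene lists and the genes to be related to it were chosen with earlier results of these data known, so that neither the lists nor their directions are independent evidence. Genes were named by a rule: the 10 highest and 5 lowest in within-group r, 19 listed genes to be related to Mb (18 passed the filter), and in each list up to 3 called members, or the 2 most abundant where none was called within groups. Other genes are named with their values known. Some genes chosen by this rule are not reported here. The alternatives tried were limma voom 3.58.1, DESeq2 1.42.0, scaling by RLE or by the upper quartile, other filters, another threshold, Mb or Gm42418 left out of the libraries, the rank of Mb, the total count as a covariate, the replicate number as a block and each sample left out in turn. No library appeared under 2 names: chi-square per gene was 2.51 to 18.7 over the 133 pairs of libraries that share a group.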

Additional observations from a re-analysis of the deposited data

How the results depend on the processing

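The log2 fold change of Mb between smoke and air was -0.39 to -0.34 when each of 24 samples was left out in turn, and -0.37 to -0.35 with other scalings, tools and filters and with the block. Among the covariates added after seeing the data, it was -0.19 with Myh2, -0.27 with Myh4 and -0.35 with Hbb-bs. The count of genes differing between smoke and air was 195. It was 323 with DESeq2, 413 at an adjusted p under 0.10 and 141 to 254 leaving out 1 sample. The count of genes tracking Mb within groups, 4, was less stable. It was 9 with upper-quartile scaling, 33 with DESeq2, 10 with limma voom, 41 with no filter, 16 at an adjusted p under 0.10, 2 with the rank of Mb as covariate and 1 to 9 leaving out 1 sample. It was 1 without smoke replicates 8, 11 or 13, 2 without air replicate 4, 9 without air replicate 6, and 7 without air replicate 10 or smoke replicate 10. Without air replicate 11 it was 5, of which 1 was among the 4. In the within-group fit, Myh2 was called in each of these settings and omissions. In air alone the count was 34 with no filter and 0 in each other setting run. In smoke alone it was 13 with no filter, 3 with the rank of Mb and 2 to 6 leaving out 1 sample. The test of a difference in slope gave 0 throughout. Of the 44 permutation relations, 1 was called. It was 3 with RLE scaling, with a prior count of 0.5 and with Mb left out of the libraries, and 0 without the 2 samples farthest from the Mb median.

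The labels tie the replicate numbers to no shared animal, litter or day, and the numbers were not taken to pair the samples. The 11 same-numbered pairs had a mean correlation of -0.01 in their deviations against 0.00 for the 132 other pairs, with 4 of 11 over 0.1. With the number as a replicate block over 22 samples, the Mb log2 fold change was -0.37 (SE 0.07), the smoke-air count 138 (110 of them among the 195) and the within-group count 4, of which 2 were among the first 4. Among the calls between smoke and air, limma voom gave 1 in place of 3 in the Schwann-cell list and 1 in place of 2 in the hypoxia list, where Ndrg1 lost the call, and DESeq2 gave 2 in place of 3 among the globins, where Hba-a2 did. Depth limited little for Mb, with at least 14989 counts in every sample, and more for slow-fibre, macrophage and smooth-muscle genes with few counts.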
